A study of Mus musculus with 36 samples.

Results

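Dopamine neuron identity genes are the genes for transcription factors and effectors that mark midbrain dopamine neurons. The set held Nr4a2, Pitx3, Foxa1, Foxa2, Lmx1b, En1, Ret, Aldh1a1 and Sncg, 9 of the 18193 genes covered. All 16 probe sets annotated to exactly 1 of these symbols were taken, of 45037 that were not controls, and each was read on all 36 arrays. A probe set is a group of short probes that reads 1 stretch of a transcript. Nr4a2 had 6 probe sets, Ret 2, Lmx1b 2 and the other genes 1 each.

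Dopamine neurons of the ventral midbrain are specified in the floor plate and keep several of the factors that specified them. In the mouse, Foxa1, Foxa2 and Lmx1b act early, Nr4a2 and Pitx3 turn on and maintain the transmitter genes, and En1 is needed for the survival of the adult neurons. Ret receives survival signals of the glial cell line-derived factor family, Aldh1a1 oxidises aldehydes and makes retinoic acid, and Sncg is a synuclein of neuronal cell bodies and axons.

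Male C57B1/6J mice went through place conditioning and were tested for preference on day 11. One group had been injected with modafinil, a drug that promotes wakefulness and inhibits dopamine reuptake, in doses of 65 mg per kg between days 3 and 10 of conditioning. The control group had been injected with saline, called vehicle here, and both groups were killed 24 h after the last injection. Punches 1 mm wide from slices 100 µm thick gave RNA of the ventral tegmental area (VTA), where dopamine neurons lie, of the nucleus accumbens (NAC), a striatal target of their axons, and of the prefrontal cortex (PFC). In VTA there were 5 modafinil and 5 vehicle arrays, in NAC likewise 5 and 5, and in PFC 8 and 8. For VTA and NAC, 2 tissue pieces were pooled where the RNA integrity number was above 7. The labels do not say that each array of a group is a separate mouse, so a p-value here covers the spread among arrays alone, which may be technical. In punches of mixed tissue, fewer cells of a type and less RNA per cell cannot be told apart.

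All values are log2 levels. Array medians lay between 6.76 and 6.81 in VTA, between 6.79 and 6.90 in NAC and between 7.20 and 7.27 in PFC. PFC values are therefore on another scale, and levels were set against PFC only as percentiles within an array. The labels also give another protocol for PFC RNA, so region and protocol cannot be told apart in a comparison with PFC. In the fit of VTA against NAC in vehicle mice, the PFC arrays entered the level filter and the spread only. Arrays of a group correlated with each other at 0.987 or more. Precision is limited by how many arrays each group has.

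The promoters of 3 members that were higher in VTA than in NAC are shown because they differ in base composition and because 1 of them holds the only motif match. They are RefSeq windows of 250 bases upstream of an annotated start (GRCm38.p6), printed on the strand of the gene, and capitals mark a motif.
Foxa1, chr12:57546112-57546361, minus strand: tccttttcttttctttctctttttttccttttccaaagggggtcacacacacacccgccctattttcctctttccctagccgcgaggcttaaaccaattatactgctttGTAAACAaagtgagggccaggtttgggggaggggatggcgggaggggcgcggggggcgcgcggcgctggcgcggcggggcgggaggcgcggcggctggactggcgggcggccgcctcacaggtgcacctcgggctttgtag
Aldh1a1, chr19:20601718-20601967, plus strand: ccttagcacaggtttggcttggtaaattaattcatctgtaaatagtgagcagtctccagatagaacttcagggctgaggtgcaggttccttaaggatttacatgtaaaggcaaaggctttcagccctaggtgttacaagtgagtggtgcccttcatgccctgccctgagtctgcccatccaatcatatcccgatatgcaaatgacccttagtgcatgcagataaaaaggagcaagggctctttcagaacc
Sncg, chr14:34374670-34374919, minus strand: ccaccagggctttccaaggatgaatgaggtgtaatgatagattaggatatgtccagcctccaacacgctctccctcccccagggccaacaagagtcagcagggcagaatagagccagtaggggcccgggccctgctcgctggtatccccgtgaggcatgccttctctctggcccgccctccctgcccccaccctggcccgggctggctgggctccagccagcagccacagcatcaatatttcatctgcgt
Windows were found for 8 of the 9 genes (all but Ret), 11 windows in all. Both strands were searched for 4 motifs. AAAGGTCA, a site bound by Nr4a2, occurs in 1.34% of the 32851 windows of all genes and in none of the 11. TAATCC, the core bound by Pitx factors, occurs in 6.25% of all windows and in none of the 11. TAATTA, a core bound by LIM and engrailed homeodomain factors, occurs in 4.84% and in none of the 11. TGTTTAC, the core bound by forkhead factors such as Foxa1 and Foxa2, occurs in 3.17% of all windows and in 1 of the 11. That match lies in the window of Foxa1 itself, on the opposite strand as GTAAACA, 141 bases before the start. The windows also differ in base composition. The Foxa1 window is 62.0% G and C with 21 CpG pairs, and the Sncg window is 61.6% with 7. The Aldh1a1 window shown is 46.4% G and C with 1 CpG pair, against medians of 52.4% and 6 over all windows. The Nr4a2 window is at the other end, at 80.0% with 44 CpG pairs. These are descriptions of the letters and show no binding.

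The first comparison set VTA against NAC in vehicle mice and asked how far each gene marks the midbrain punch. Ret was the member with the widest gap, and Foxa1, Sncg, Foxa2 and Aldh1a1 were also far higher in VTA. En1 was higher in VTA too, but it was dim in both regions. For Nr4a2, none of the 4 brighter probe sets passed the test. The punch itself carried dopamine neuron markers: Slc6a3, the dopamine transporter gene, was higher in vehicle VTA than in vehicle NAC by 5.25 (SE 0.32). Th, the gene of the rate-limiting enzyme of dopamine synthesis, was higher in VTA by 2.56 (SE 0.40). Ddc, the gene of the enzyme that follows it, was higher by 2.81 (SE 0.26).

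In this comparison probe sets with a mean in the upper part of the arrays were tested (at or above the 40th percentile over the 18 vehicle arrays), which kept 27022. A gene that is present in 1 region alone can fall below that level, and 8 of the 16 member probe sets were kept. Of the 8, 4 passed the test (limma, Benjamini-Hochberg adjusted p under 0.05), 3 higher and 1 lower in VTA, where 59.0% of all probe sets tested passed, 28.8% higher and 30.3% lower. Of the 3 higher, Ret and Sncg averaged only the 33.9th and 30.9th percentiles in vehicle NAC, and Sncg the 34.8th in vehicle PFC. Their VTA level helped to keep them, so the count of 3 higher was partly set by the filter. With every probe set tested, 11 of 16 passed, 9 higher and 2 lower in VTA. Among all 45037 probe sets 56.8% then passed, 25.1% higher and 31.7% lower.

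Among the transcription factors, Foxa1 stood at 9.05, 8.56, 9.04, 8.30 and 8.78 in vehicle VTA, against 4.65, 4.86, 4.77, 4.51 and 4.74 in vehicle NAC. The arrays of the regions were wide apart, with every VTA value above every NAC value. The difference was 4.04 (SE 0.12, adjusted p 1.22e-15 with no filter). Foxa2, its paralogue, averaged 8.07 ± 0.63 in VTA and 5.39 ± 0.17 in NAC (SD, n = 5 each), a difference of 2.68 (SE 0.21, adjusted p 1.34e-09 with no filter). En1, a homeodomain factor of the midbrain and hindbrain border, stood at 5.98, 4.64, 4.48, 3.44 and 3.52 in vehicle VTA, against 2.94, 2.84, 2.94, 2.70 and 2.73 in vehicle NAC. Vehicle VTA array 1 was the highest, and vehicle VTA arrays 4 and 5 came near the NAC level. Its difference was 1.58 (SE 0.30, adjusted p 0.000171 with no filter). En1 is dim everywhere: even in vehicle VTA it ranked at the 16.9th percentile of its arrays on average.

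Lmx1b, a LIM homeodomain factor, and Pitx3, a paired-like homeodomain factor, had smaller gaps. Lmx1b averaged 6.55 ± 0.22 in VTA and 5.69 ± 0.16 in NAC by its brighter probe set, a difference of 0.85 (SE 0.10, adjusted p 3.85e-07 with no filter). Its dimmer probe set went the other way and was lower in VTA, at −0.35 (SE 0.10, adjusted p 0.00455 with no filter). The probe sets of Lmx1b thus disagree in sign. Pitx3 averaged 6.34 ± 0.22 in VTA and 5.68 ± 0.10 in NAC, a difference of 0.66 (SE 0.09, adjusted p 4.5e-06 with no filter). Both genes ranked below the middle of the array in VTA, at the 46.3rd and 43.0th percentiles.

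Nr4a2, a nuclear receptor without a known ligand, was the exception. By its brightest probe set it averaged 9.79 ± 0.66 in vehicle VTA and 9.87 ± 0.96 in vehicle NAC, and the difference of −0.08 (SE 0.35) did not pass the test (adjusted p 0.857). The next 3 probe sets gave differences of 0.06, 0.20 and 0.16, none of which passed. The fifth, 1433422_at, was lower in VTA by a small amount, at −0.25 (SE 0.07, adjusted p 0.00373). In the mouse, Nr4a2 is also known from the claustrum and deep layers of the cortex.

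Of the effectors, Ret stood at 11.59, 10.79, 10.55, 9.78 and 10.32 in vehicle VTA, against 5.89, 5.76, 5.98, 5.93 and 5.77 in vehicle NAC. Every VTA array lay far above every NAC array. The difference was 4.74 (SE 0.25, adjusted p 6.69e-12). The dimmer Ret probe set gave 1.64 (SE 0.15, adjusted p 2.09e-08 with no filter). Sncg stood at 9.49, 8.91, 8.89, 9.12 and 8.78 in vehicle VTA, against 5.38, 5.78, 5.94, 5.55 and 5.75 in vehicle NAC. The spread within each region was small beside the gap, which was 3.36 (SE 0.13, adjusted p 1.53e-13). Aldh1a1 stood at 12.34, 11.65, 11.49, 10.96 and 11.43 in vehicle VTA, against 8.37 to 9.26 in vehicle NAC. It was the one effector with a clear level in NAC too, at the 80.5th percentile of the NAC arrays, and its difference was 2.62 (SE 0.21, adjusted p 3.19e-09). Fitted on the 10 vehicle VTA and NAC arrays alone, an alternative chosen after seeing the data, 11 member probe sets were kept and 7 passed, Foxa1 and Foxa2 among them, where 56.5% of all probe sets tested passed. With a stricter level filter (60th percentile) 1 member probe set passed, where 59.7% of all tested did.

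As percentiles within an array, Ret averaged 96.2 in vehicle VTA, 33.9 in vehicle NAC and 43.2 in vehicle PFC. The PFC values thus lay near the NAC values, and the same held for most members. Sncg averaged 81.3, 30.9 and 34.8 in VTA, NAC and PFC. Foxa1 averaged 76.6, 16.5 and 17.4, and Foxa2 averaged 67.7, 26.4 and 28.1 in the same order. Nr4a2, again apart from the rest, averaged 90.8, 90.7 and 83.0, with overlapping arrays in all 3 regions. No test was made on percentiles.

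**Figure D1:**
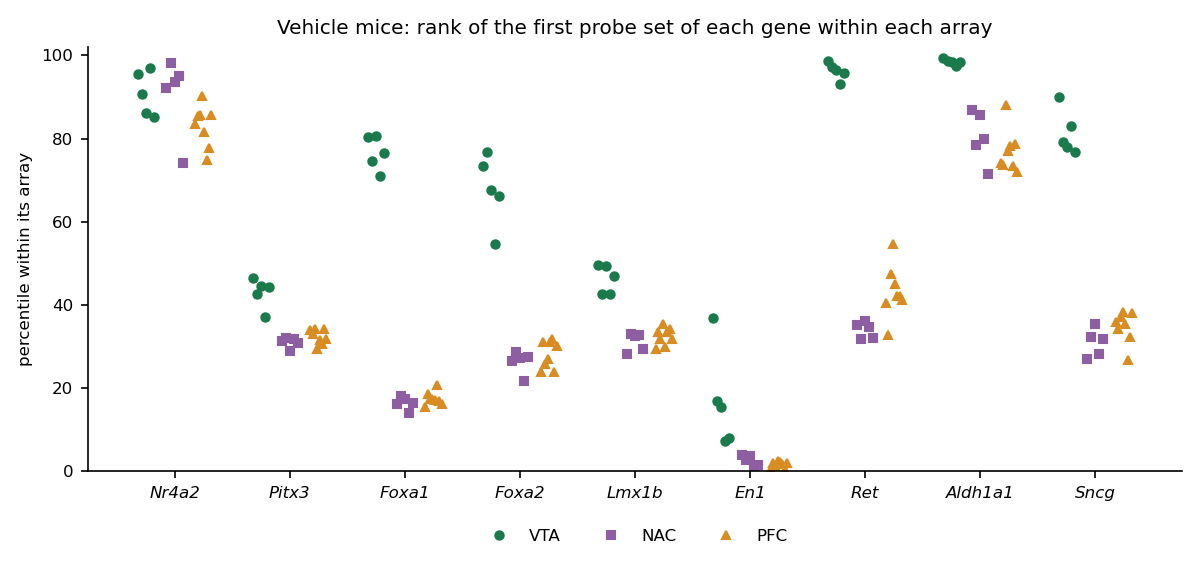
Percentile of the first probe set of each member within its own array, in vehicle mice (5 VTA, 5 NAC and 8 PFC arrays, 1 symbol per array). Ret, Foxa1, Foxa2 and Sncg sit higher in VTA than in the other regions, while the Nr4a2 arrays of the regions overlap.

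The second comparison set modafinil against vehicle within VTA. Mean levels were lower in modafinil VTA for most members, with differences of −1.29 to −0.45 for Nr4a2, Foxa1, Foxa2, Lmx1b, Ret, Aldh1a1 and Sncg by their brightest probe sets, but none passed the test. Of the 16 member probe sets 13 were kept by the level filter, and 0 of the 13 passed at an adjusted p under 0.05, against 0.259% of all 27022 tested. At an unadjusted p under 0.05, 11 of the 13 were lower in modafinil VTA and 0 higher, where 14.2% of all probe sets tested were lower and 6.84% higher. The members were chosen with earlier results of these data known. Several of their probe sets read the same gene, and all were read in the same arrays. The counts are therefore not independent tests, and the shares beside them are descriptions. With no filter, 0 of 16 passed (0.0% of all), 12 of 16 were lower at an unadjusted p under 0.05 (9.27% of all), and 14 of 16 had a difference below 0 (52.8% of all). The median difference of the 16 was −0.61, against −0.01 over all probe sets. Among those kept by the filter, 12 of the 13 members had a difference below 0 (63.8% of all tested). Their median was −0.63, against −0.05 over all tested. By other settings the count that passed was 0 or 2. It was 2 with a stricter level filter, where 1.62% of all probe sets tested passed, with a trended and robust variance (0.892% of all) and in 1 fit of all 36 arrays (3.48% of all), and Sncg was 1 of the 2 each time.

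Sncg stood at 7.77, 8.01, 8.20, 8.27 and 8.70 in modafinil VTA, against 9.49, 8.91, 8.89, 9.12 and 8.78 in vehicle VTA. All modafinil arrays lay below all vehicle arrays, with modafinil array 5 just under vehicle array 5. Groups that do not overlap, with modafinil lower, were found for 3.93% of all probe sets tested. The difference was −0.85 (SE 0.17, adjusted p 0.0523) and did not pass. Without modafinil array 5 it was −0.97 (adjusted p 0.07), and without vehicle array 1 it was −0.73 (adjusted p 0.118). Over 8 alternatives its adjusted p ran from 9.41e-05 to 0.0917. The lowest came from 1 fit of all 36 arrays (SE 0.13), which pools the spread with regions where Sncg is dim and varies less.

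Ret stood at 8.91, 8.98, 9.37, 8.83 and 10.49 in modafinil VTA, against 11.59, 10.79, 10.55, 9.78 and 10.32 in vehicle VTA. Of the modafinil arrays 4 lay below the lowest vehicle array, and modafinil array 5 lay among the vehicle arrays. At least 4 modafinil arrays below the lowest vehicle array were found for 11.4% of all probe sets tested. The difference was −1.29 (SE 0.35, adjusted p 0.0875), and it was −1.58 without modafinil array 5 and −1.04 without vehicle array 1. In 1 fit of all 36 arrays its adjusted p was 0.00205 (SE 0.25), but that fit pools the spread of all regions. The SD of Ret was 0.69 and 0.67 in modafinil and vehicle VTA. It was 0.25 and 0.10 in NAC, where Ret is dim, and 0.20 and 0.40 in PFC, so the SE understates the spread within VTA. The dimmer Ret probe set gave −0.46 (SE 0.20, adjusted p 0.212).

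Aldh1a1 stood at 11.07, 11.03, 11.03, 10.89 and 11.51 in modafinil VTA, against 12.34, 11.65, 11.49, 10.96 and 11.43 in vehicle VTA. The groups overlapped, with vehicle array 4 at the level of the modafinil arrays. The difference was −0.47 (SE 0.20, adjusted p 0.22), and it was −0.27 without vehicle array 1. Aldh1a7, a mouse gene closely similar in sequence to Aldh1a1, averaged 5.25 ± 0.89 in modafinil VTA and 6.98 ± 1.26 in vehicle VTA, a difference of −1.73 (SE 0.56) below the level filter. Whether the probes of one read the other was not tested.

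Nr4a2 was read by 6 probe sets that did not behave alike. By 1450749_a_at it stood at 8.12, 8.45, 8.47, 8.40 and 8.77 in modafinil VTA, against 9.19, 8.86, 8.94, 9.49 and 8.87 in vehicle VTA. These groups did not overlap, and the vehicle values were led by arrays 4 and 1. The difference was −0.63 (SE 0.14, adjusted p 0.0558). By 1450750_a_at the groups did not overlap either, at −0.91 (SE 0.23, adjusted p 0.0779). By the brightest probe set, 1447863_s_at, it stood at 8.41, 9.34, 9.19, 9.53 and 9.23 in modafinil VTA, against 10.30, 9.47, 9.27, 10.69 and 9.23 in vehicle VTA. Here the groups overlapped, since vehicle arrays 2, 3 and 5 lay among the modafinil arrays. The difference was −0.65 (SE 0.29, adjusted p 0.222), and it was −0.43 without vehicle array 4. The second brightest probe set, 1455034_at, gave −0.75 (SE 0.28, adjusted p 0.163). The dimmer 1433422_at and 1433423_at gave 0.14 (SE 0.08) and −0.04 (SE 0.12), so the probe sets disagree in sign.

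Foxa1 stood at 7.43, 7.89, 8.42, 8.46 and 8.55 in modafinil VTA, against 9.05, 8.56, 9.04, 8.30 and 8.78 in vehicle VTA. Modafinil arrays 1 and 2 were the lowest, and vehicle array 4 lay among the modafinil arrays. The difference was −0.60 (SE 0.21, adjusted p 0.153). Foxa2 stood at 6.61, 7.65, 7.50, 6.89 and 7.97 in modafinil VTA, against 8.51, 8.74, 8.06, 7.12 and 7.94 in vehicle VTA. Its groups overlapped as well, with vehicle array 4 among the modafinil arrays and modafinil array 5 above vehicle array 5, and the difference was −0.75 (SE 0.31, adjusted p 0.196).

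En1 did not pass the level filter. It stood at 3.04, 2.93, 2.85, 3.00 and 3.52 in modafinil VTA, against 5.98, 4.64, 4.48, 3.44 and 3.52 in vehicle VTA. The modafinil arrays apart from array 5 lay below every vehicle array, and they were near the En1 levels of NAC. The difference was −1.35 (SE 0.39, adjusted p 0.148 with no filter).

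Lmx1b ran from 5.34 to 6.49 in modafinil VTA and from 6.32 to 6.78 in vehicle VTA by its brighter probe set. Modafinil array 2 was far below the rest. The difference was −0.45 (SE 0.19, adjusted p 0.207), and it was −0.26 without modafinil array 2. The dimmer Lmx1b probe set gave 0.15 (SE 0.12) below the filter. Pitx3 ran from 6.07 to 6.37 in modafinil VTA and from 5.98 to 6.59 in vehicle VTA, with full overlap and a difference of −0.11 (SE 0.10, adjusted p 0.557). It was −0.20 without vehicle array 4 and −0.05 without vehicle array 1. Pitx3 was also the member whose VTA level was closest to its NAC level apart from Nr4a2.

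**Figure D2:**
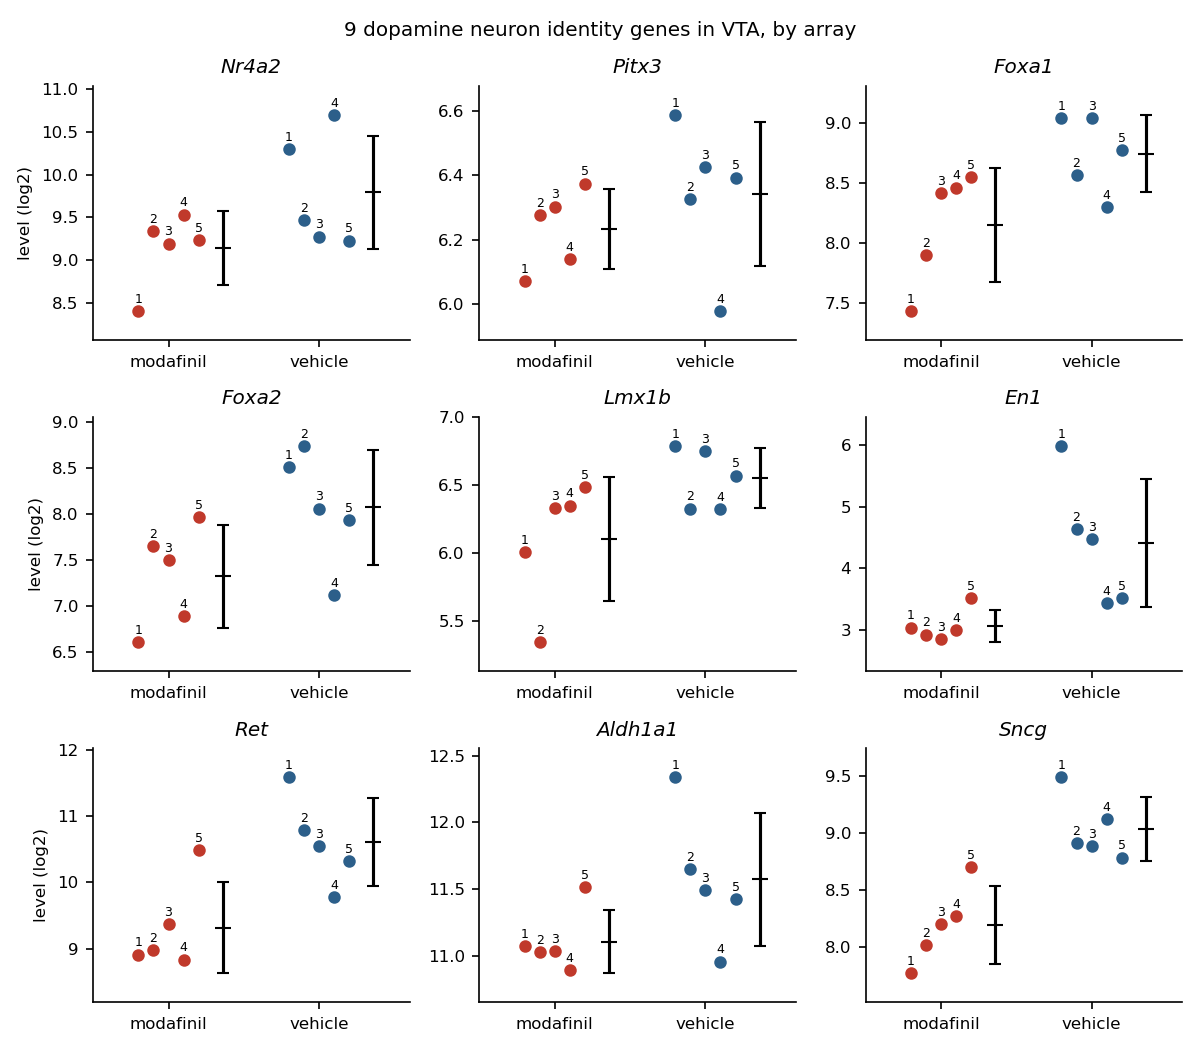
Log2 levels of the first (brightest in VTA) probe set of each member in each VTA array, modafinil left and vehicle right, with array numbers beside the points and the mean ± SD (n = 5 each) as a bar. The Sncg groups do not overlap, modafinil array 5 is the highest modafinil array for 8 of the 9 genes, and vehicle array 1 leads the vehicle group for most.

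Across members the arrays kept a similar order. The mean over the 9 first probe sets, each taken against its vehicle mean, was −1.09, −0.85, −0.66, −0.75 and −0.26 in modafinil VTA arrays 1 to 5. In vehicle VTA arrays 1 to 5 it was 0.61, 0.03, −0.02, −0.38 and −0.24. The modafinil group was the lower one, but its array 5 lay within the vehicle range and vehicle array 4 came closest to the modafinil arrays. Vehicle array 1 was the highest of the 10 arrays for 7 of the 9 genes, and modafinil array 1 was the lowest for 4. Over the 10 arrays, Ret correlated with the mean of the other 8 genes at r = 0.95, Sncg at 0.91, En1 at 0.89 and Aldh1a1 at 0.88. Foxa1, Foxa2, Pitx3 and Lmx1b followed at 0.82, 0.78, 0.71 and 0.67. Nr4a2 was the least alike at 0.44. Its highest array was vehicle array 4, where the mean over the members was the lowest of the vehicle group. These correlations are over arrays of both groups, share every array, and are given as descriptions.

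The transmitter genes of dopamine neurons had a similar order of arrays. Slc6a3 stood at 8.08, 9.06, 9.30, 8.42 and 10.97 in modafinil VTA, against 12.43, 11.14, 11.07, 9.71 and 10.67 in vehicle VTA. As for Ret, modafinil array 5 lay inside the vehicle range and vehicle array 4 was the lowest vehicle array. The differences were −1.84 (SE 0.54, adjusted p 0.103) for Slc6a3, −1.50 (SE 0.49, adjusted p 0.131) for Th, −1.55 (SE 0.51, adjusted p 0.133) for Slc18a2, the vesicular monoamine transporter gene, and −1.22 (SE 0.41, adjusted p 0.137) for Ddc. Of 9 tested genes of dopamine synthesis and transport 0 passed, 7 were lower at an unadjusted p under 0.05 and the median was −1.22. Over all probe sets tested in VTA, 0.259% passed, and 14.2% were lower and 6.84% higher at an unadjusted p under 0.05. This list too was chosen with earlier results of these data known, so the shares are descriptions.

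The genes most like the members in pattern were chosen by the highest correlation over the 10 VTA arrays among 22640 probe sets of other genes. They were Cast, the gene of the protease inhibitor calpastatin (r = 0.99), Slc18a2, Gch1, the first enzyme gene of the tetrahydrobiopterin cofactor pathway, En2, the paralogue of En1, and Chrna6, a nicotinic receptor subunit gene of dopamine neurons. The most opposite were Fgf12 (r = −0.96), Pitpnc1, Ropn1, Vangl1 and Atrnl1. The mean over the members was lower in modafinil VTA, and the correlation ran over both groups. Genes most like that mean are therefore lower in modafinil VTA by the choice itself, and their differences are descriptions only. Cast averaged 8.09 in modafinil VTA and 8.50 in vehicle VTA, a difference of −0.41 (SE 0.10, adjusted p 0.0665). It was higher in vehicle VTA than in vehicle NAC, by 1.74 (SE 0.12).

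Among further midbrain dopamine neuron genes, 0 of 18 tested passed. At an unadjusted p under 0.05, 8 were lower (14.2% of all) and 3 higher (6.84% of all). Chrna6 gave −1.41 (SE 0.40, adjusted p 0.0947) and En2 gave −1.21 (SE 0.34, adjusted p 0.0933). Calb1, a calcium-binding protein gene of a subset of these neurons that other neurons also use, went the other way at 0.71 (SE 0.26, adjusted p 0.164). Cck, a neuropeptide gene, also gave a positive value, 0.68 (SE 0.21, adjusted p 0.114). In the signalling pathway of Ret, 0 of 9 tested genes passed and 3 were lower at an unadjusted p under 0.05 (14.2% of all). Gfra1, the gene of the co-receptor that binds the glial cell line-derived factor and presents it to Ret, averaged 8.93 ± 0.12 in modafinil VTA and 9.45 ± 0.30 in vehicle VTA, a difference of −0.52 (SE 0.12, adjusted p 0.0698). Gfra2, its paralogue for neurturin, gave −0.20 (SE 0.07, adjusted p 0.135), and the ligand gene Gdnf was dim in both groups, at 4.24 and 4.24.

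Around Aldh1a1, 0 of 9 tested genes of retinoid metabolism and reception passed. At an unadjusted p under 0.05, 1 was lower (14.2% of all) and 1 higher (6.84% of all). Rbp4, a retinol carrier gene, gave −0.53 (SE 0.21, adjusted p 0.188) and the receptor gene Rara gave 0.20 (SE 0.09, adjusted p 0.231). Of 4 tested relatives of the members 0 passed and 1 was lower at an unadjusted p under 0.05 (14.2% of all). Nr4a1 averaged 8.96 and Nr4a3 8.16 in modafinil VTA, against 8.96 and 8.44 in vehicle VTA, and their differences were 0.00 (SE 0.07) and −0.29 (SE 0.18). Sncb, the beta-synuclein gene, gave −0.03 (SE 0.05).

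Markers of other cells were read in the same arrays. Their lists were also chosen with earlier results of these data known, so list counts beside a share of all probe sets are descriptions. Of 12 thalamic neuron genes, 11 had a positive difference in VTA, where 63.8% of all probe sets tested had a negative one. At an unadjusted p under 0.05, 7 were higher (6.84% of all) and 1 lower (14.2% of all) in modafinil VTA, although 0 passed. The mean level of the 12 stood at 10.17, 9.49, 9.74, 9.59 and 9.52 in modafinil VTA, against 8.47, 8.17, 8.64, 9.44 and 9.23 in vehicle VTA. The groups did not overlap, and vehicle arrays 4 and 5, the lowest of the vehicle group in the mean over the members, were the highest vehicle arrays. Ramp3 averaged 9.56 ± 0.49 in modafinil VTA and 7.47 ± 1.01 in vehicle VTA, a difference of 2.09 (SE 0.41, adjusted p 0.0524), and Prkcd gave 2.16 (SE 0.43, adjusted p 0.0524). Slc17a6, a transporter gene of glutamate neurons in thalamus and midbrain alike, gave 0.14 (SE 0.10). None of the 12 was near the bottom of the arrays in either group, and the part of the thalamic signal in the members' differences was not tested.

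Over all probe sets tested in VTA, 63.8% had a negative difference (median −0.05), and 14.2% were lower and 6.84% higher at an unadjusted p under 0.05. Of 13 oligodendrocyte genes, all 13 had a negative difference and 5 were lower at an unadjusted p under 0.05, with a median of −0.19. Their mean level ran from 10.68 to 10.79 in modafinil VTA and from 10.68 to 11.10 in vehicle VTA. Of 3 tested serotonin neuron genes all 3 had a negative difference and 2 were lower at an unadjusted p under 0.05, with a median of −0.47. All 6 serotonin neuron genes with a probe set, tested or not, had a mean level of 6.12 to 6.97 in modafinil VTA and 6.48 to 7.77 in vehicle VTA. Tph2, their defining synthesis gene, was dim in both groups, at 3.24 ± 0.33 and 3.58 ± 0.34. For GABA neurons of the midbrain, 7 of 8 tested genes had a negative difference and 0 an unadjusted p under 0.05. Of the hypothalamic and mammillary genes 1 of 11 was higher at an unadjusted p under 0.05, of the red nucleus and oculomotor genes 0 of 2 differed, and of the microglial genes 1 of 8 was higher. Of the astrocyte genes 2 of 10 were lower, of the vessel genes 3 of 9, of the choroid plexus and ependymal genes 1 of 4 and of the striatal genes 2 of 9. In lists this short, the astrocyte, choroid plexus and striatal counts lie near the share of all probe sets. Of the cortical excitatory genes 4 of 7 were higher, and of the claustrum and deep-layer genes 3 of 7 were lower and 1 was higher. None of the genes in these lists passed the test in VTA. Some genes stand in more than 1 list, such as Ddc, Gfra1 and En2. The 3′ minus 5′ signal of the actin control probe sets, a measure of RNA integrity, ran from 0.90 to 0.98 in modafinil VTA and from 0.94 to 1.18 in vehicle VTA. For Gapdh it ran from −0.12 to −0.08 in modafinil VTA and from −0.12 to 0.12 in vehicle VTA. The part of these cells and of RNA integrity in the members' differences was not tested.

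**Figure D3:**
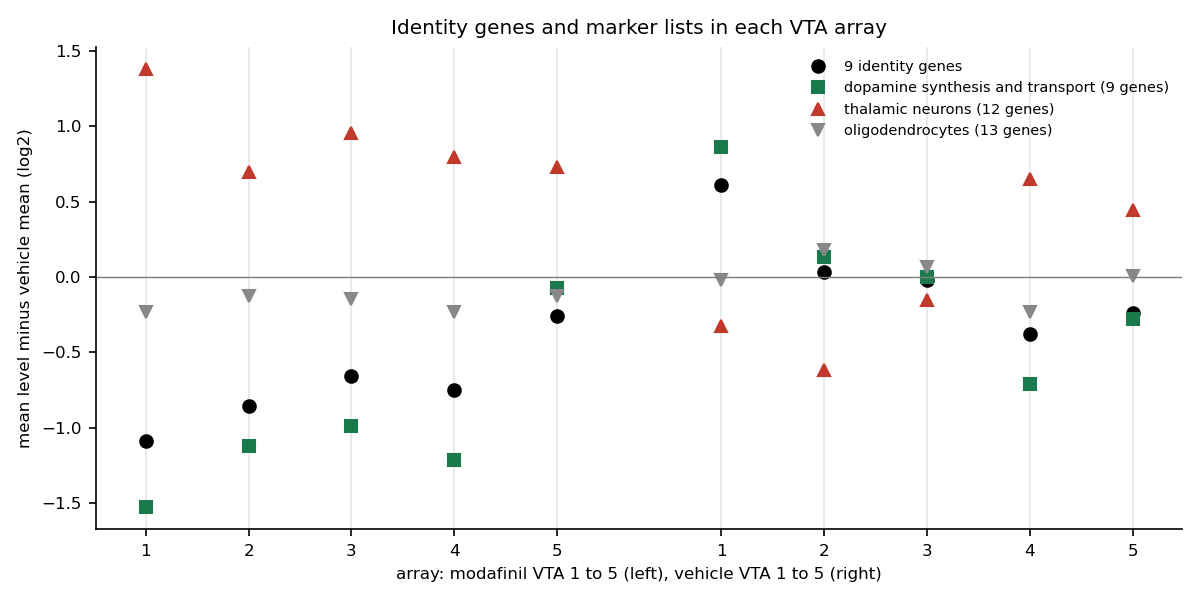
Mean log2 level of the 9 members (first probe sets) and of 3 marker lists in each VTA array, minus the vehicle mean of the same genes, with modafinil arrays left and vehicle arrays right. The members and the genes of dopamine synthesis and transport have a similar order over the arrays, and the thalamic genes lie higher in every modafinil array than in any vehicle array.

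The third comparison set modafinil against vehicle in the target regions, where dopamine axons but not their cell bodies lie. In NAC, 6 of the 16 member probe sets were kept and 0 passed, as for all 27022 probe sets tested (0.0% passed). At an unadjusted p under 0.05 there were also 0 of the 6, and 874 of all probe sets (3.23%). With no filter 0 of 16 reached an unadjusted p under 0.05 (3.36% of all).

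Nr4a2 varied widely between NAC arrays. By its brightest probe set it stood at 10.31, 7.01, 10.78, 11.26 and 11.13 in modafinil NAC, against 9.53, 11.22, 9.87, 10.16 and 8.59 in vehicle NAC. Modafinil array 2 was the lowest of the 10 and vehicle array 5 the next, with the groups overlapping. The difference was 0.23 (SE 0.73, adjusted p 1.0), and it was 1.00 (adjusted p 0.654) without modafinil array 2. The mean level of 11 cortical excitatory neuron genes stood at 8.96, 7.61, 9.54, 9.57 and 9.30 in modafinil NAC, against 8.80, 9.62, 8.83, 8.89 and 7.83 in vehicle NAC. The same arrays were the lowest, modafinil array 2 and vehicle array 5. The level of 10 striatal projection neuron genes stood at 11.14, 11.43, 10.48, 10.05 and 10.96 in modafinil NAC, against 10.78, 10.50, 11.04, 11.25 and 11.48 in vehicle NAC, and the arrays low for Nr4a2 were the highest here. The claustrum and deep-layer genes ran only from 9.09 to 9.59 in modafinil NAC and from 9.28 to 9.57 in vehicle NAC. The part of cortical tissue in the Nr4a2 values was not tested.

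**Figure D4:**
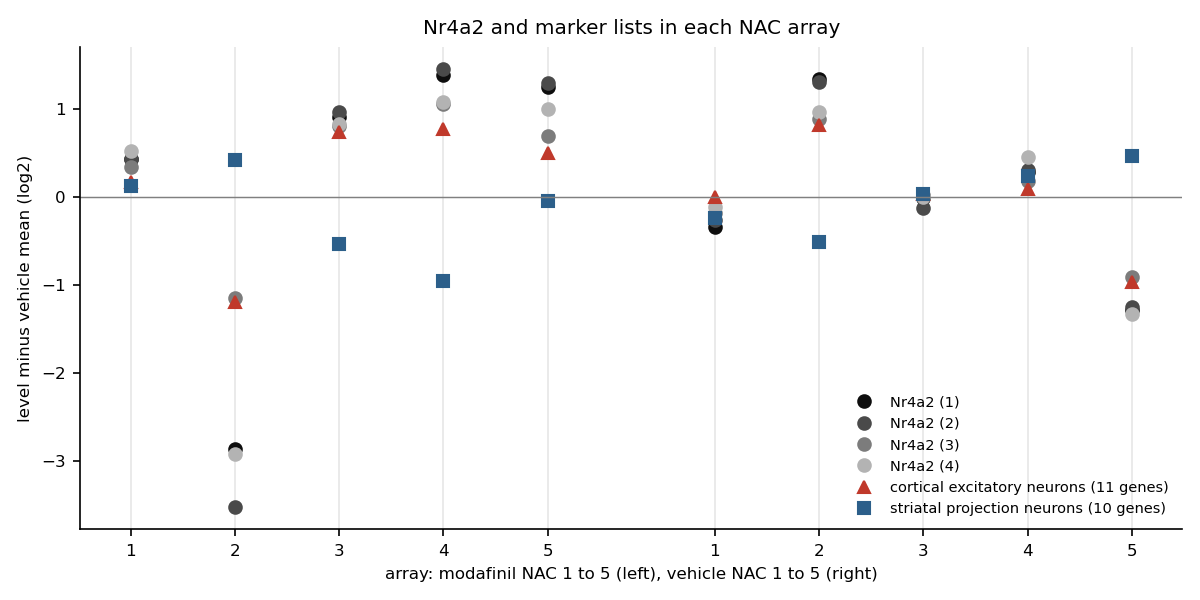
Log2 levels of the 4 brighter Nr4a2 probe sets, numbered by their level in VTA, and mean levels of 2 marker lists in each NAC array, minus the vehicle mean, with modafinil arrays left and vehicle arrays right. Nr4a2 and the cortical genes are lowest in modafinil array 2 and vehicle array 5, where the striatal genes are highest.

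Aldh1a1 ran from 8.62 to 9.48 in modafinil NAC and from 8.37 to 9.26 in vehicle NAC. Its lowest modafinil array was again array 2, and the difference was 0.31 (SE 0.19, adjusted p 1.0). It was 0.47 without modafinil array 2 and 0.17 without vehicle array 5. The other 8 genes include 7 with first probe sets below the level filter in NAC. Among these 7, differences ran from −0.17 for Ret to 0.14 for Foxa1.

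In PFC, 7 of the 16 probe sets were kept and 0 passed, against 0.0518% of all tested. At an unadjusted p under 0.05 there were 0 of the 7, against 11.8% of all probe sets tested. With no filter 0 of 16 passed (0.0377% of all), and 2 of 16 were higher at an unadjusted p under 0.05 (5.59% of all): Pitx3 at 0.16 (SE 0.06, adjusted p 0.384) and the dimmer Lmx1b probe set at 0.14 (SE 0.06, adjusted p 0.437). Nr4a2 ran from 9.21 to 10.53 with a median of 9.58 in modafinil PFC and from 9.05 to 9.93 with a median of 9.59 in vehicle PFC. Only modafinil array 3 lay above the vehicle range, and the difference was 0.13 (SE 0.15, adjusted p 0.731), or 0.00 without that array. Ret gave −0.14 (SE 0.14, adjusted p 0.69), and −0.22 without vehicle array 2 or −0.03 without vehicle array 4. Aldh1a1 gave −0.03 (SE 0.13, adjusted p 0.929), a value that turned to 0.03 after quantile normalization. Sncg, below the filter in PFC, averaged 6.42 ± 0.09 in modafinil PFC and 6.30 ± 0.21 in vehicle PFC.

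**Figure D5:**
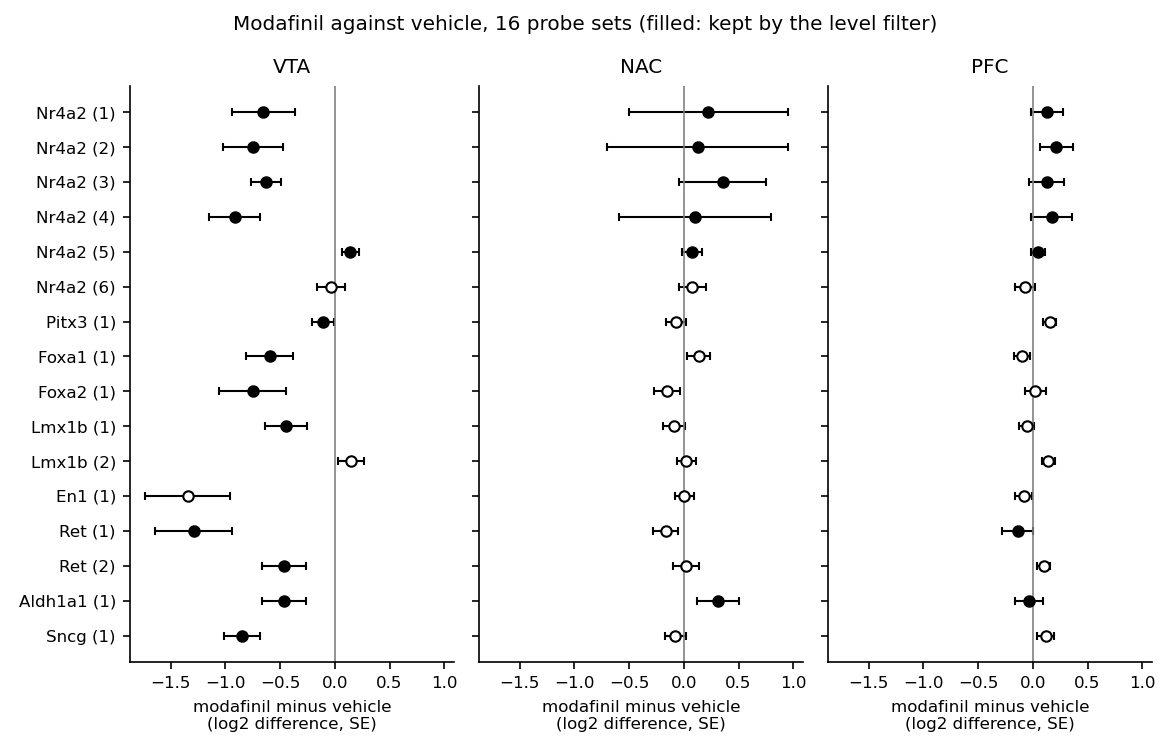
Modafinil minus vehicle for the 16 member probe sets in VTA, NAC and PFC as log2 differences with their SE, probe sets of a gene numbered by level in VTA, filled where kept by the level filter. In VTA the values of Ret, En1, Sncg and the 4 brighter Nr4a2 probe sets lie below 0, and in NAC the Nr4a2 errors are the widest.

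Whether the difference between treatments itself differs between regions was tested in a fit of all 36 arrays. That fit pools the spread of the 3 regions. A gene that varies little where it is dim can thus get a smaller SE than from VTA arrays alone. The comparisons of VTA with NAC and with PFC share the VTA arrays. Against NAC, 0 of 8 member probe sets kept passed, against 0.274% of all tested, and 4 of 8 were lower at an unadjusted p under 0.05 (6.57% of all). The VTA levels of Sncg and Ret helped to keep them, so this count was partly set by the filter. With no filter 0 of 16 passed (0.213% of all), and 7 of 16 were lower at an unadjusted p under 0.05 (5.2% of all). Sncg came nearest, with a modafinil change of −0.85 in VTA and −0.08 in NAC, a difference of −0.77 (SE 0.18, adjusted p 0.0526). Sncg and Ret were both below the level filter in NAC, and whether a lower level could have been seen there was not tested. Without any 1 array the adjusted p of Sncg ran from 0.00858 to 0.128. It was under 0.05 without vehicle VTA array 3 or 5, modafinil VTA array 5, or vehicle NAC array 2 or 3. Ret gave −1.12 (SE 0.35, adjusted p 0.177), and an adjusted p of 0.0221 without modafinil VTA array 5. Nr4a2 gave −0.88 (SE 0.68, adjusted p 0.655) by its brightest probe set, and −1.65 without modafinil NAC array 2 or −0.56 without vehicle NAC array 5.

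Against PFC, 1 of 8 passed, against 0.903% of all tested. It was Sncg, with a modafinil change of −0.85 in VTA and 0.12 in PFC, a difference of −0.96 (SE 0.16, adjusted p 0.00123). Sncg lay at the 36.3rd and 34.8th percentiles of modafinil and vehicle PFC arrays, below the level filter there. Whether a lower level in PFC could have been seen was not tested. With NAC and PFC levels below the filter, Sncg was kept in this fit through its VTA level. The SD of Sncg was 0.34 and 0.28 in modafinil and vehicle VTA, against 0.09 and 0.21 in PFC and 0.02 and 0.22 in NAC. The pooled SE was therefore no larger than the 0.17 of VTA alone, and the adjusted p rests partly on arrays where Sncg is dim. Sncg passed without any 1 array as well, with adjusted p values of 0.000186 to 0.00467. Ret gave −1.15 (SE 0.32, adjusted p 0.0732), and passed without modafinil VTA array 5, vehicle VTA array 4 or vehicle PFC array 4. With no filter 2 of 16 passed (0.586% of all), and the other was En1, at −1.26 (SE 0.31, adjusted p 0.043). Aldh1a1 gave −0.43 (SE 0.26, adjusted p 0.52), and −0.24 without vehicle VTA array 1. Within VTA alone the difference of Sncg did not pass, as given above.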

How the data were processed

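The log2 values of 36 Affymetrix mouse arrays were used as deposited by the authors. Per the submitters' processing notes they come from RMA (version not stated there). Symbols came from the platform annotation, and 64 control probe sets were left out. Comparisons used limma 3.58.1 (lmFit, eBayes; R 4.3.3) on the 27022 probe sets at or above the 40th percentile of mean level in the fitted arrays. P-values were adjusted over all of them by Benjamini-Hochberg, with a threshold of 0.05. The fits were tested on simulated data. All member probe sets are described, and the first of a gene is the brightest over the 10 VTA arrays. List genes were read likewise, with examples by smallest p. The members and lists were chosen with earlier results of these data known. Alternatives were quantile normalization, no filter, the 60th percentile, trended robust variances, array weights, 1 probe set per gene, a replicate block, 1 fit of 36 arrays and leaving out each array. Raw intensities and behaviour were not analysed here.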

Additional observations from a re-analysis of the deposited data

Results flagged for a closer look

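Of 96 checks of a member probe set within a group, 11 found an array far from the rest of its group by Dixon's criterion, and chance gives about 1 in 20. Modafinil NAC array 2 was far below the rest of its group for Nr4a2 by 1447863_s_at (7.01), 1455034_at (6.19) and 1450750_a_at (5.86), and for Aldh1a1 (8.62). Modafinil PFC array 3 was far above its group for Nr4a2 by 1447863_s_at (10.53) and 1455034_at (10.72), and modafinil PFC array 8 was far below by 1433422_at (7.23). Vehicle PFC array 6 was far below by 1455034_at (9.08). In modafinil VTA, array 1 was far below for Nr4a2 by 1455034_at (8.51), array 2 far above for the dimmer Lmx1b probe set (5.92), and array 5 far above for En1 (3.52). The modafinil change of Sncg differed between VTA and PFC by −0.96 in the test of that difference, with Sncg below the level filter in PFC.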

How the results depend on the processing

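Genes below the level filter in a comparison had only 1 or 2 alternatives, and the others had 6 to 8 and kept their direction except where named. The VTA count of 0 became 2 with the 60th percentile filter (Sncg and Nr4a2 1450749_a_at), 2 with trended robust variances (the same probe sets) and 2 in 1 fit of 36 arrays (Sncg and Ret). The regional count of 4 became 11 with no filter, 1 with the 60th percentile filter (59.7% of all probe sets tested) and 7 on the VTA and NAC vehicle arrays only, chosen after seeing the data. The VTA minus PFC count of 1 became 2 with no filter and 0 with the 60th percentile filter, which drops Sncg. Leaving out 1 array gave counts of 0 to 0 in VTA, NAC and PFC, 4 to 5 between regions, 0 to 2 for VTA minus NAC and 1 to 2 for VTA minus PFC. Aldh1a1 in PFC reversed to 0.0286 after quantile normalization, and ran from −0.0784 to 0.0435 without 1 array. Without 1 array Nr4a2 also changed sign in NAC (−0.10 to 1.00) and between regions (−0.40 to 0.26). The labels do not say whether same-numbered arrays share a mouse. Correlations of their deviations from the group means ran from −0.526 to 0.267, and from 0.013 to 0.249 between vehicle VTA and vehicle NAC. Such values cannot decide whether the arrays are paired, and the main fits took them as unpaired. With the replicate block the counts were 0, 0 and 0 in the regions, 4 between regions, 0 and 1 for the interactions. Over all probe sets in VTA, the number that passed was 70, and it was 262 after quantile normalization, 0 with no filter, 291 with the 60th percentile filter, 241 with trended robust variances, 704 with array weights, 1 with 1 probe set per gene, 0 with the block and 940 in 1 fit of 36 arrays. Quantile normalization moved array medians by 0.226 and 0.215 in modafinil and vehicle VTA, 0.154 and 0.147 in NAC, and −0.239 and −0.225 in PFC.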
